A study of Homo sapiens with 6 samples.

Results

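Plasminogen activators, their cell-surface receptors and the inhibitors around them were followed in the RNA of MRC5 cells, through 8 genes chosen by name: *PLAT*, *PLAU*, *PLAUR*, *SERPINE2*, *SERPINB2*, *SERPINF1*, *A2M* and *LRP1*. All 8 were found among the 58676 gene identifiers of the deposited count table, and all 8 passed the filter on low counts with 19072 genes in all. MRC5 is an established line of human lung fibroblasts, and the fibroblasts were kept for 24 h in conditioned media (CM) taken from ATIIER:KRASV12 cells, an alveolar epithelial type II (ATII) line carrying a RAS protein that 4-hydroxytamoxifen (4-OHT) switches on. For 3 libraries the media were those of control ATIIER:KRASV12 cells (control ATII CM), and for the other 3 those of the same line given 4-OHT (4-OHT ATII CM). The study made this comparison without TGF-β. The model is limited to 1 fibroblast line and 1 epithelial line, and RAS activation in the epithelial cells cannot be told apart from 4-OHT carried over in the CM. Nothing in the labels says that the libraries of a group came from separate cultures, so p values measure the spread between these libraries, which may be technical.

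Plasmin, the protease that dissolves fibrin and cuts many matrix proteins, is made from plasminogen by tissue plasminogen activator (tPA, from *PLAT*) and urokinase (uPA, from *PLAU*). The urokinase receptor (from *PLAUR*) holds uPA at the cell surface, serpins trap the activators in covalent complexes, and α2-macroglobulin (from *A2M*) encloses proteases of many classes. The complexes are taken into the cell by the endocytic receptor LRP1, which also binds tPA and signals. In fibrotic lung the system is known for setting how fibrin and provisional matrix are cleared, and tPA made by ATII cells is a paracrine signal to fibroblasts that the study followed in other assays. The counts described here are of the fibroblasts' own RNA.

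The libraries held 17691849 to 26389449 counts each (median 22273931). Control replicate 2 stood apart from the other control libraries over all genes: the chi-square of their counts, divided by its degrees of freedom, was 6.03 and 5.27 for its pairs and 2.12 to 3.10 for every other pair within a group, and results without it are given beside the genes it moves. Levels are given as CPM, the counts of a gene scaled to a common library size after TMM normalization, and levels of different genes are compared as TPM, which also divides by exon length. Fold changes are on the log2 scale and above 0 where 4-OHT ATII CM was higher. Tests are edgeR's quasi-likelihood test with Benjamini-Hochberg adjustment over all genes tested, and a gene was called below an adjusted p of 0.05. Summed levels of 10 fibroblast markers were 41095 to 44612 CPM with control ATII CM, against 42969 to 44711 CPM in 4-OHT ATII CM. Of the 10, 4 were called higher (*DCN*, *LUM*, *COL3A1* and *PDGFRA*) and 1 lower (*VIM*). Over all genes tested, 2.95% were called higher and 2.76% lower. The 4 higher calls held in all 16 alternatives, and that of *VIM* (adjusted p = 0.0414) was lost in 6, namely with no filter beyond 1 count, with the replicate number as a block (the replicate block), without control replicate 3 and without each 4-OHT replicate (adjusted p up to 0.212). The 14 epithelial markers summed to 10.96 to 12.8 CPM with control ATII CM, against 9.59 to 11.01 CPM with 4-OHT ATII CM, with *KRT5*, *NKX2-1* and *SFTPA1* at 0 in every library. Of the 14, 6 passed the filter, and these 6 were all lower in 4-OHT ATII CM (median log2 fold change -0.21) with none called. The 6 immune markers summed to 0.609 to 1.01 and 1.14 to 1.94 CPM (*MRC1* and *CD3E* at 0), the 5 endothelial markers to 0.328 to 0.560 and 0.228 to 0.521 CPM (*PECAM1*, *CDH5* and *EMCN* at 0), and the 5 hepatocyte markers to at most 0.201 CPM in any library (*FGB* and *TTR* at 0). The part of these markers in the results was not tested. In bulk RNA, a lower level in every cell and fewer cells that express a gene cannot be told apart.

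Among the 8 genes, *A2M* and *SERPINF1* rose and *PLAUR* fell in 4-OHT ATII CM, while both plasminogen activators, *LRP1*, *SERPINE2* and *SERPINB2* did not pass the threshold. These are 3 calls among 8 genes, where 5.72% of all genes tested were called. By direction, 2.95% of all genes tested were called higher and 2.76% lower. The median log2 fold change of the 8 genes was 0.094, with 6 higher and 2 lower, against -0.0020 over all genes tested. In 6 of the 8 genes the 3 CPM values of one group lay outside those of the other, 5 of them higher in 4-OHT ATII CM, and 22.1% of all genes tested had groups that did not overlap.

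**Figure D1:**
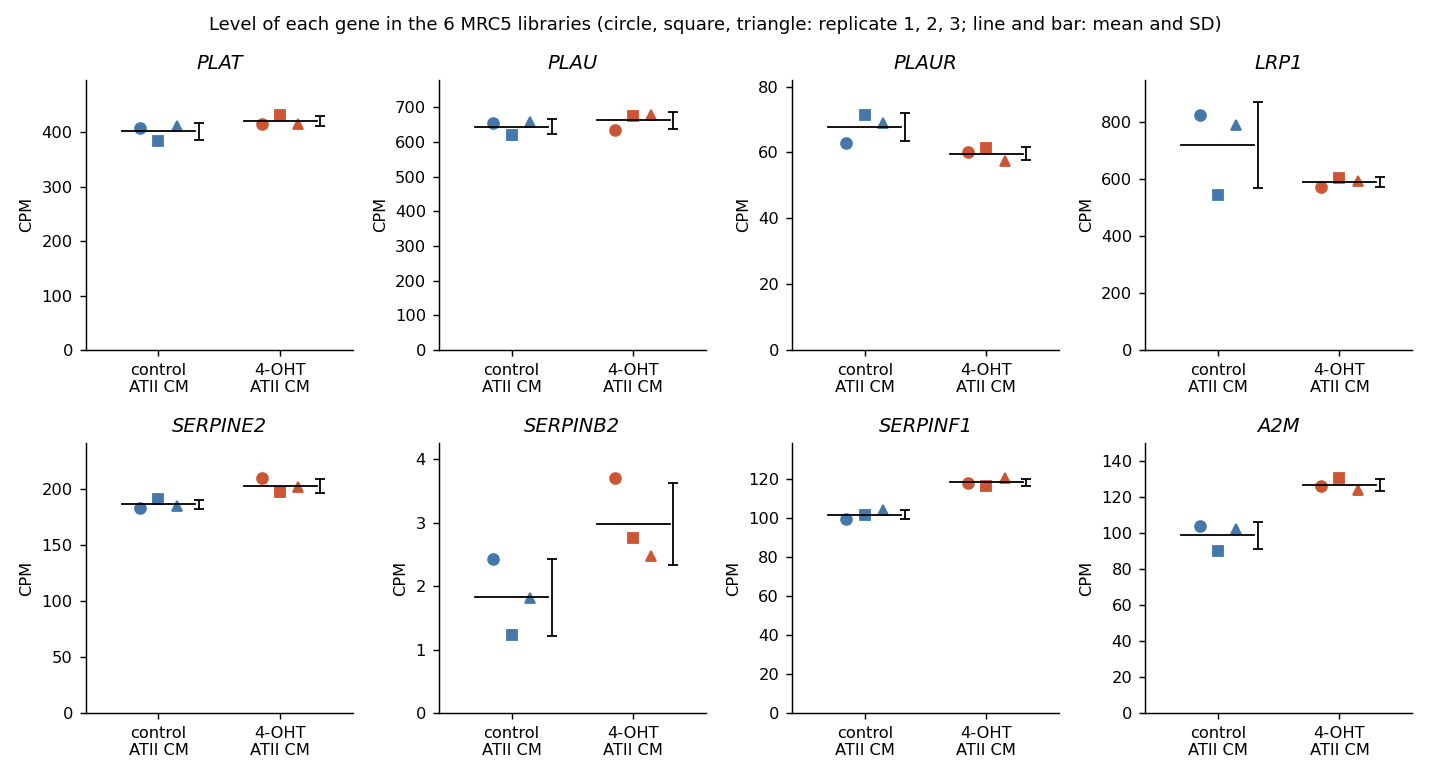
CPM of the 8 genes in each library of control ATII CM (blue) and 4-OHT ATII CM (orange), with the group mean (line) and SD (bar, n = 3) and every axis starting at 0. *A2M* and *SERPINF1* lie higher and *PLAUR* lower in all 3 libraries of 4-OHT ATII CM, and *LRP1* of control replicate 2, at 546 CPM, lies with the 4-OHT libraries.

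Per length, the fibroblasts' most abundant transcript of the 8 was that of urokinase. *PLAU* was at 892 ± 34.0 TPM (SD, n = 3) in control ATII CM and 912 ± 24.2 TPM in 4-OHT ATII CM, which placed it at rank 127 of the 13859 protein-coding genes tested. *PLAT* came next, with 248 ± 10.6 and 258 ± 3.83 TPM. *SERPINF1* (135 ± 2.28 TPM) and *LRP1* (141 ± 30.6 TPM) overlapped in control ATII CM, where *LRP1* was the higher gene in replicates 1 and 3 and the lower one in replicate 2. In 4-OHT ATII CM they were apart, at 157 ± 3.76 TPM for *SERPINF1* and 115 ± 1.99 TPM for *LRP1*. *SERPINE2* followed at 85.7 ± 1.29 and 92.8 ± 4.01 TPM. *A2M* (63.1 ± 5.14 TPM) and *PLAUR* (62.0 ± 3.52 TPM) could not be ranked beyond their spread in control ATII CM, but in 4-OHT ATII CM every *A2M* value (80.5 ± 1.75 TPM) was above every *PLAUR* value (54.4 ± 1.89 TPM). *SERPINB2* was the lowest, at 2.72 ± 0.918 and 4.41 ± 0.999 TPM, at rank 10341 of the 13859.

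**Figure D2:**
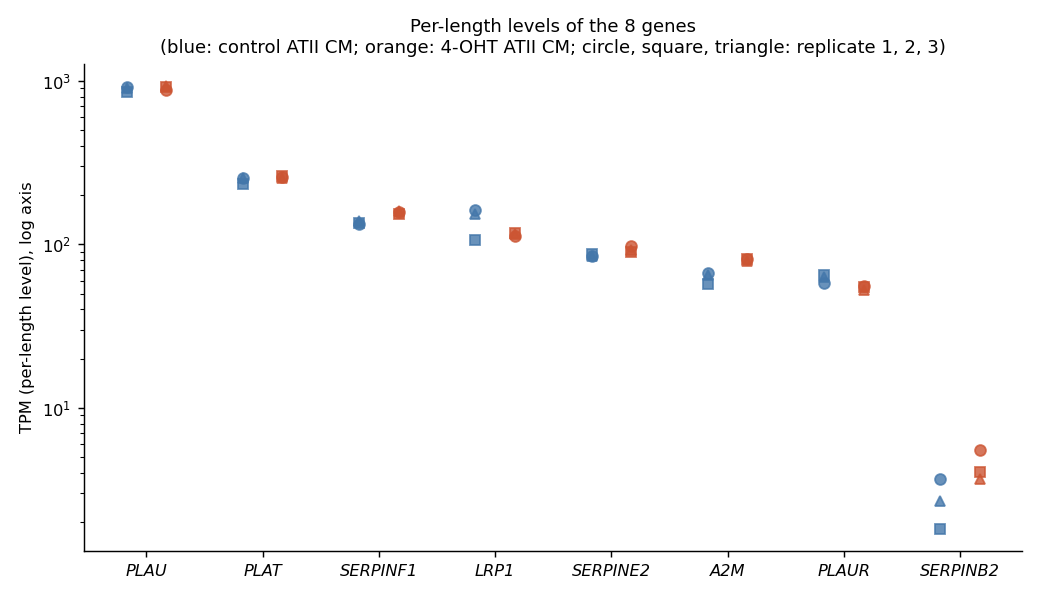
Per-length level (TPM, log axis) of the 8 genes in each library, ordered by the mean over all 6, in control ATII CM (blue) and 4-OHT ATII CM (orange). *PLAU* stands highest near 902 TPM and *SERPINB2* lowest below 6 TPM, and *A2M* and *PLAUR* share a level in control ATII CM but not in 4-OHT ATII CM.

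*PLAT* (ENSG00000104368, chromosome 8 of GRCh38, 42175233 to 42207724) encodes tPA, the activator that works best on plasminogen bound to fibrin. Its level was 408, 384 and 412 CPM in replicates 1 to 3 of control ATII CM and 415, 432 and 415 CPM in those of 4-OHT ATII CM. The highest control library and the lowest 4-OHT library were almost level, and on the TPM scale the groups overlapped. The estimated log2 fold change by edgeR was 0.067 (SE 0.0346, adjusted p = 0.349), with a 95% interval from -0.0070 to 0.14, so the interval holds changes from a slight fall to a rise of 10.2%. Each library held between 6857 and 10895 counts of *PLAT*, and it was called in none of its 16 alternatives, with a log2 fold change of 0.036 without control replicate 2.

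*PLAU* (ENSG00000122861, chromosome 10, 73909177 to 73917497), the gene of uPA, was at 655, 620 and 658 CPM with control ATII CM, against 634, 676 and 678 CPM with 4-OHT ATII CM. The groups overlapped, with 4-OHT replicate 1 below 2 of the control libraries. The estimated log2 fold change by edgeR was 0.040 (SE 0.0346, adjusted p = 0.625), and its 95% interval reached from -0.034 to 0.11, a change of -2.31% to 8.18%. It was called in none of its 16 alternatives, and with 1 library left out the log2 fold change was 0.013 without control replicate 2, 0.024 without 4-OHT replicate 2, 0.020 without 4-OHT replicate 3 and 0.075 without 4-OHT replicate 1. Exons of *C10orf55* overlap 916 bases of *PLAU* on the opposite strand, and that gene had at most 35 counts in any library against at least 11079 of *PLAU*.

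*PLAUR* (ENSG00000011422, chromosome 19, 43646095 to 43670547) encodes the urokinase receptor, a protein tied to the membrane by a lipid anchor that also binds vitronectin. It was at 62.9, 71.4 and 69.0 CPM with control ATII CM, against 60.3, 61.3 and 57.4 CPM with 4-OHT ATII CM. Each of the 3 libraries with 4-OHT ATII CM was lower, the closest to them being control replicate 1. *PLAUR* fell by 0.18 on the log2 scale (SE 0.0481, adjusted p = 0.0355), a change of -11.9% with a 95% interval from -17.9% to -5.39%. The call is close to the threshold. It was kept by each other test, normalization and filter and without control replicate 1, and lost without control replicate 2 (adjusted p = 0.0560) or 3 (0.126) and without 4-OHT replicate 1 (0.0902), 2 (0.0712) or 3 (0.169), all with the same direction.

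Promoter sequences of RefSeq (GRCh38.p14) were looked at for the gene that fell and for genes of the same system, to show where a motif known from inducible genes of this system lies. The pattern was the AP-1 motif TGANTCA, which reads alike on both strands, in the 250 bases before each start site, and 6.57% of the 35116 promoters of the table hold it. The search covered 7 promoters of 5 of the 8 genes, *PLAU*, *PLAUR*, *SERPINE2*, *SERPINB2* and *LRP1*, and 2 of the 7 hold the motif. They are *PLAUR*, 186 bases before the start, and *SERPINB2*, 102 bases before the start. No promoter of the remaining genes of the 8 was searched, so the count covers these 5 genes only. Among 11 genes of the plasminogen binding list with a promoter in the table, *ANXA2* alone holds it, 127 bases before the start. Of the 3 genes of that list that fell (described with it), *ANXA2* holds the motif and *ENO1* and *S100A10* do not. These 3 promoters are shown 5′ to 3′ on the strand of the gene, with the motif in capitals. The PLAUR promoter lies at chr19:43670170-43670419 on the minus strand, that of SERPINB2 at chr18:63887455-63887704 on the plus strand and that of ANXA2 at chr15:60397987-60398236 on the minus strand.
PLAUR: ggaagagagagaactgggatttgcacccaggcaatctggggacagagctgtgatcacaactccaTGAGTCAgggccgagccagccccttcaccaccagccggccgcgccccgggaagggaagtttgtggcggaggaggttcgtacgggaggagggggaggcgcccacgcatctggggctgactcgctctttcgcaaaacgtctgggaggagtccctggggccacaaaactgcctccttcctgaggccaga
SERPINB2: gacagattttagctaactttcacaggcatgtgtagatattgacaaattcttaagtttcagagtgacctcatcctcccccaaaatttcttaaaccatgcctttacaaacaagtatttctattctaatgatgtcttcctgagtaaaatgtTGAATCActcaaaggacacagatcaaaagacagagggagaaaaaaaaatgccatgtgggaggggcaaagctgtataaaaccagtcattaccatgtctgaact
ANXA2: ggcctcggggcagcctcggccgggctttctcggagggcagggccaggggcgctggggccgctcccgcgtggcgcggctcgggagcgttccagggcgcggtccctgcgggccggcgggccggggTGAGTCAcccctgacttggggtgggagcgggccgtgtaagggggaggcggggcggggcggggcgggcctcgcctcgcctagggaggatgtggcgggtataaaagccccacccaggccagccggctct
The match is a description of these letters, and the 3 genes did not share a direction, since *SERPINB2* was higher in 4-OHT ATII CM without passing the test.

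*LRP1* (ENSG00000123384, chromosome 12, 57128493 to 57213351) encodes the large endocytic receptor that clears protease-inhibitor complexes and α2-macroglobulin. It was at 825, 546 and 790 CPM with control ATII CM, against 571, 605 and 594 CPM with 4-OHT ATII CM. Control replicates 1 and 3 were above every 4-OHT library, and control replicate 2 was below all of them, so the groups overlapped. The estimated log2 fold change by edgeR was -0.29 (SE 0.0991, unadjusted p = 0.0107, adjusted p = 0.118, both from edgeR). Without control replicate 2 it was -0.45 with an adjusted p of 1.68e-08, and with each other library left out it was between -0.31 and -0.18 and not called. With no filter beyond 1 count it was also called (adjusted p = 4.26e-14, log2 fold change -0.28, SE 0.0338), and DESeq2 gave an adjusted p of 0.430 (SE 0.174). The fit without that filter hardly moved the size. Its SE was far below the 0.0991 of the main fit, although the control libraries lay as far apart as before. Control replicate 1 also set the size, since without it the log2 fold change was -0.18 (adjusted p = 0.388).

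The exons of *LRP1* cover 20839 bases, and long transcripts as a set moved in the same libraries, a comparison chosen after the values of *LRP1* were seen. Of genes with a mean of at least 10 CPM, the 310 with exons of at least 15000 bases were lower in control replicate 2 than in control replicates 1 and 3 by a median log2 difference of -0.15, against 0.0015 over all 9202 such genes. The value for *LRP1* was -0.57. In 4-OHT ATII CM the median of the long genes was -0.090 relative to control replicates 1 and 3, and that of *LRP1* was -0.45. With each library's trend on gene length removed, *LRP1* was at 766, 582 and 746 with control ATII CM and 585, 616 and 608 with 4-OHT ATII CM on the scale of CPM, a log2 fold change of -0.21 (adjusted p = 0.0715). The order of the libraries stayed as it was, with control replicate 2 below the 4-OHT libraries. Exons of *STAT6* overlap 59 bases of *LRP1* on the opposite strand, and *STAT6* had a log2 fold change of 0.070 (adjusted p = 0.364).

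*SERPINE2* (ENSG00000135919, chromosome 2, 223975112 to 224039319) encodes protease nexin-1, an extracellular serpin that inhibits thrombin, uPA, tPA and plasmin. It was at 183, 191 and 185 CPM with control ATII CM, against 210, 198 and 202 CPM with 4-OHT ATII CM. Each of the 3 libraries with 4-OHT ATII CM was above all 3 of control ATII CM. The estimated log2 fold change by edgeR was 0.12 (SE 0.0357, adjusted p = 0.0583), a difference of 8.85% that missed the threshold. It passed with DESeq2 (adjusted p = 0.0491), with limma-voom (0.0385), with no filter beyond 1 count (0.0157) and without control replicate 2 (0.0123), 4 of its 16 alternatives, and its direction was the same in all of them.

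*SERPINB2* (ENSG00000197632, chromosome 18, 63871692 to 63903890) encodes plasminogen activator inhibitor 2, a serpin that stays largely inside the cell. It had 52, 22 and 41 counts with control ATII CM, against 81, 69 and 65 counts with 4-OHT ATII CM, which is 2.44, 1.23 and 1.81 CPM against 3.70, 2.77 and 2.47 CPM. The 4-OHT libraries were the higher ones by CPM, although 4-OHT replicate 3 barely exceeded control replicate 1, and by TPM this pair changed places. Its log2 fold change of 0.68 was the largest of the 8 in size and the least certain, with a standard error of 0.229, a 95% interval from 0.19 to 1.17 and an adjusted p of 0.109. It was called in 4 of 16 alternatives, namely with no filter beyond 1 count (adjusted p = 0.0169), without control replicate 1 (0.0473), with the replicate number as a block (0.0493), and with that block and the length trend removed (0.0392). *SERPINB10* shares 547 exon bases with it on the same strand and had 0 counts in every library. A transcript of another gene, ENSG00000289724, matches 25.5% of that of *SERPINB2* with 100% identity, and counts of that gene were not examined.

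*SERPINF1* (ENSG00000132386, chromosome 17, 1761959 to 1777574) encodes pigment epithelium-derived factor, a secreted member of the serpin family that has no known inhibitory activity and limits vessel growth. It was at 99.6, 102 and 104 CPM with control ATII CM, against 118, 116 and 120 CPM with 4-OHT ATII CM. The groups were apart by far more than the spread within either, with SDs of 2.27 and 1.97 CPM (n = 3). *SERPINF1* rose with a log2 fold change of 0.22 (SE 0.0366, adjusted p = 0.00197), a change of 16.2% with a 95% interval from 10.1% to 22.7%. It was called in all 16 alternatives, with log2 fold changes from 0.20 to 0.24.

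*A2M* (ENSG00000175899, chromosome 12, 9067664 to 9116229) encodes α2-macroglobulin, a broad protease trap of plasma that also binds growth factors and is cleared through LRP1. It was at 104, 90.1 and 102 CPM with control ATII CM, against 126, 130 and 124 CPM with 4-OHT ATII CM. Control replicate 2 was the lowest library, and the lowest 4-OHT library was still above the highest control. *A2M* rose by 28.1%, with a 95% interval from 19.3% to 37.5% (log2 fold change 0.36, standard error 0.0482, adjusted p = 0.000331). It was called in all 16 alternatives, with log2 fold changes from 0.30, without control replicate 2, to 0.39, without control replicate 1. The liver is the main source of this protein in the body, and the defining hepatocyte markers were at or near 0 in every library. *A2M-AS1*, which shares 561 exon bases on the opposite strand, had 3 to 12 counts per library, and *PZP*, whose transcript matches 47.0% of that of *A2M* with 85.3% identity, had 1 count in all.

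**Figure D3:**
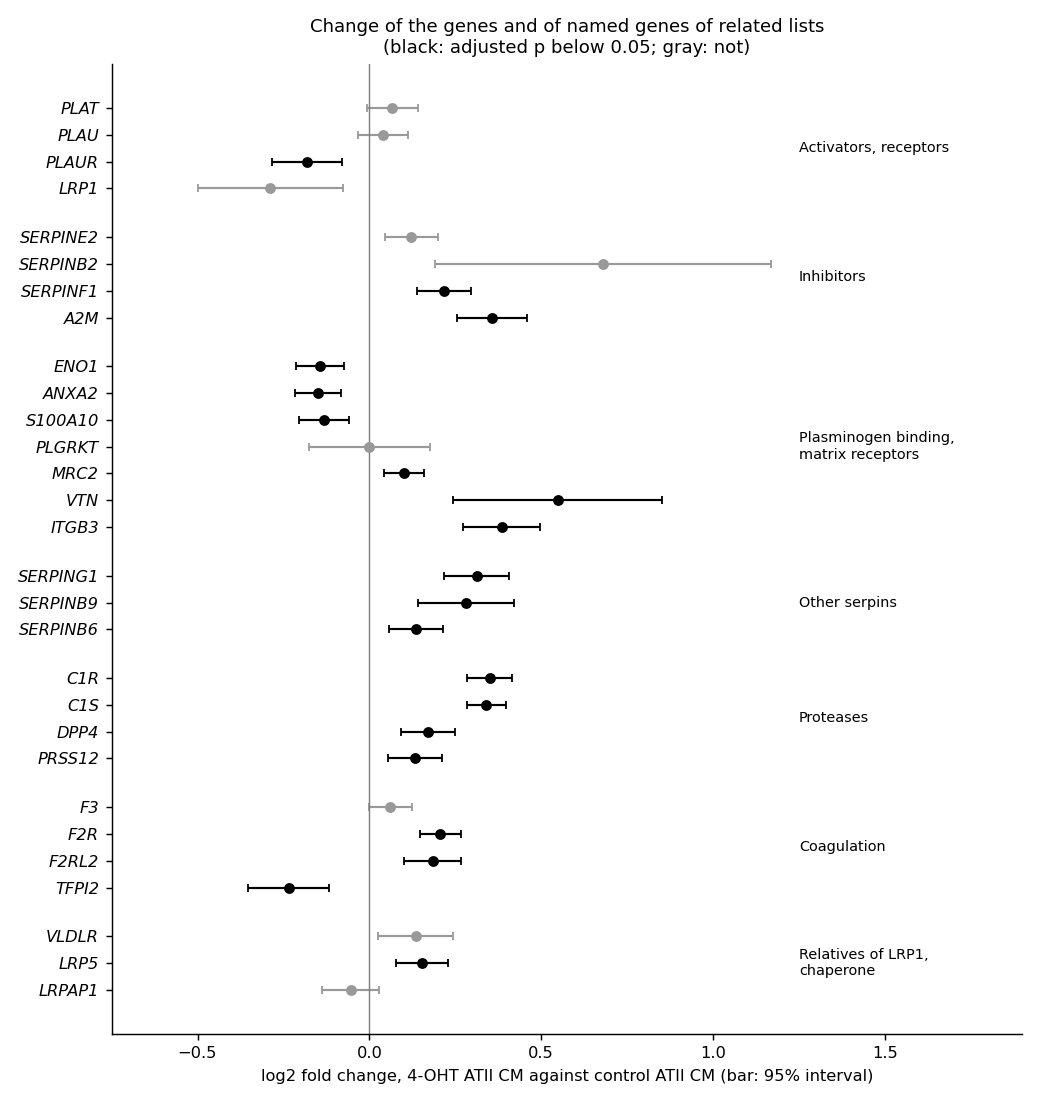
log2 fold change (horizontal axis) of 4-OHT ATII CM against control ATII CM with its 95% interval for the 8 genes (the upper 2 groups) and named genes of related lists, in black where the adjusted p was below 0.05 and in gray where it was not. *PLAT* and *PLAU* have short intervals around 0, *LRP1* and *SERPINB2* have wide ones, and *A2M* is the farthest from 0 among the called genes of the 8.

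Ratios of per-length levels within a library do not depend on how libraries are scaled, and they are given as a description with no test. The ratio of *PLAU* to *PLAT* was 3.60, 3.62 and 3.59 with control ATII CM, against 3.43, 3.51 and 3.67 with 4-OHT ATII CM, so that the balance of both activators overlapped between the groups. The ratio of *PLAU* to its receptor gene *PLAUR* was 15.7, 13.1 and 14.4 with control ATII CM, against 15.9, 16.6 and 17.9 with 4-OHT ATII CM. Every 4-OHT library had the higher ratio, by a mean log2 difference of 0.22 with a replicate SD of 0.11, and 4-OHT replicate 1 was only slightly above control replicate 1. *SERPINE2* relative to the sum of *PLAT* and *PLAU* was 0.0727, 0.0801 and 0.0731 with control ATII CM, against 0.0850, 0.0756 and 0.0776 with 4-OHT ATII CM. These values overlapped.

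**Figure D4:**
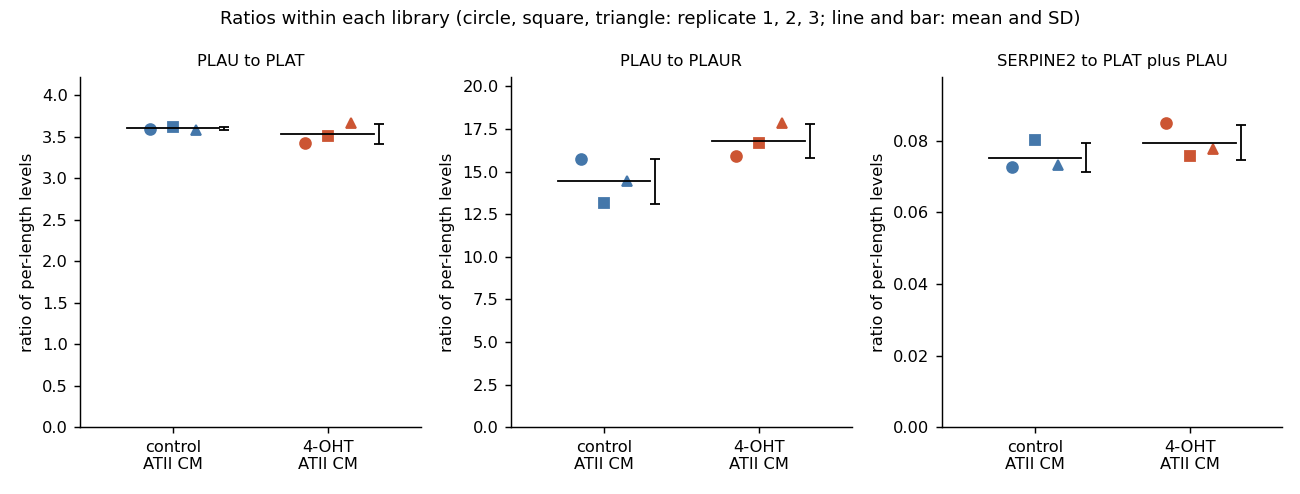
Ratio of per-length levels in each library of control ATII CM (blue) and 4-OHT ATII CM (orange), with the group mean (line) and SD (bar, n = 3) and axes starting at 0. The ratio of *PLAU* to *PLAUR* is higher in every 4-OHT library, from 15.9 to 17.9 against 13.1 to 15.7, and the other ratios overlap.

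Across the 6 libraries, *A2M* and *SERPINF1* varied together with a Pearson correlation of 0.90, *SERPINE2* and *SERPINF1* also with 0.90, and *A2M* and *PLAUR* in opposite directions with -0.88. *PLAT* and *PLAU* had a correlation of 0.78 and *LRP1* and *PLAUR* one of 0.16. The points of each pair share their libraries and the group difference, and these values are a description. Of 9202 genes with a mean of at least 10 CPM, those most like *A2M* in log2 CPM over the 6 libraries were *DPP4* (r = 0.998), *ANTXR1* (r = 0.998) and *STOX2* (r = 0.997), which had log2 fold changes of 0.17, 0.22 and 0.28 and were all called higher. Those most like *SERPINF1* were *CLDN23* (r = 0.997), *ARL6IP5* (r = 0.996) and *FZD4* (r = 0.996), with log2 fold changes of 0.26, 0.13 and 0.27, also all called higher. Those most like *PLAUR* were *IDH3B* (r = 0.995), *PYCR1* (r = 0.992) and *TOX2* (r = 0.984), at log2 fold changes of -0.082, -0.13 and -0.12, and none of these was called.

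Surface sites where plasminogen and the activators meet were followed in 13 genes, of which 12 were tested. Plasminogen itself (*PLG*) had 0 counts in every library. In this list 3 genes fell and 3 rose, and 6 were not called (median log2 fold change 0.032), where 5.72% of all genes tested were called. The 3 that fell are proteins known to bind plasminogen at the cell surface, namely *ENO1* (α-enolase), from 1384, 1505 and 1392 to 1318, 1266 and 1290 CPM, and the partners *ANXA2* and *S100A10*, with log2 fold changes of -0.14, -0.15 and -0.13 (adjusted p = 0.0156, 0.00931 and 0.0299). Like *PLAUR*, all of them were lower in each 4-OHT library, and without 4-OHT replicate 2 or 3 none of them was called, with adjusted p of at most 0.0940 for *ENO1*, 0.0670 for *ANXA2* and 0.144 for *S100A10* over all alternatives. *S100A10* was also not called without control replicate 3 or 4-OHT replicate 1, with the replicate block, or with counts thinned to the smallest total. Another plasminogen receptor, *PLGRKT*, had a log2 fold change of 0.00011 with a 95% interval from -0.17 to 0.18. Those that rose bind matrix or the urokinase receptor, with log2 fold changes of 0.38 for *ITGB3* (integrin β3, adjusted p = 0.000336), 0.55 for its ligand *VTN* (vitronectin, adjusted p = 0.0339) and 0.10 for *MRC2* (the collagen receptor Endo180, which associates with the urokinase receptor, adjusted p = 0.0420). *ITGB3* was called in all 16 alternatives, *VTN* in 12 and *MRC2* in 8. *VTN* was lost without control replicate 1 or 2 or 4-OHT replicate 2 or 3, with adjusted p up to 0.163, and *MRC2* with every library left out except control replicate 2, with the replicate block, with the length trend removed and with both together, with adjusted p up to 0.184.

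Of 34 protein-coding serpin genes followed here, 16 had no count in any library and 13 were tested, with 4 called higher and 0 lower by edgeR, against 2.95% and 2.76% of all genes tested. At an unadjusted p below 0.05, 7 were higher and 1 was lower, against 8.72% and 8.61% of all genes tested, so that the lower count is no result about the list. The lower gene was *SERPINB7*, named after its values were seen (log2 fold change -0.67, adjusted p = 0.0501). DESeq2 and limma-voom each called 5 higher and 1 lower, where DESeq2 called 2.55% and 2.45% of all genes and limma-voom 3.04% and 2.89%. Of the 10 tested that were not already described, 3 rose (median log2 fold change -0.065). *SERPING1*, the inhibitor of the complement proteases C1r and C1s, rose with a log2 fold change of 0.31 (adjusted p = 0.000460, called in all alternatives). *SERPINB9*, which inhibits granzyme B, and *SERPINB6*, an intracellular protease inhibitor, rose with log2 fold changes of 0.28 and 0.14 (adjusted p = 0.0179 and 0.0398). *SERPINB9* was lost without control replicate 1 or 3 or 4-OHT replicate 2 (adjusted p up to 0.0984), and *SERPINB6* with every library left out except control replicate 2 and after thinning (up to 0.178).

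Around *LRP1*, 14 of 15 related receptors and chaperones were tested, and 1 rose (median log2 fold change 0.043), a share near the 5.72% called among all genes tested, so that the count is no result about the list. The gene was *LRP5*, a Wnt co-receptor, with a log2 fold change of 0.15 (adjusted p = 0.0186), which was lost in 4 of 16 alternatives, namely without control replicate 3 or 4-OHT replicate 2 or 3 and after thinning (adjusted p up to 0.142). *VLDLR*, which also takes up serpin complexes, and *LRPAP1*, the chaperone of *LRP1*, had log2 fold changes of 0.13 and -0.054 (adjusted p = 0.170 and 0.540). Of the relatives of *A2M*, 5 of 6 were tested and 1 was called (5.72% over all genes), complement *C3*, with 15, 13 and 21 counts with control ATII CM, against 43, 41 and 35 with 4-OHT ATII CM (log2 fold change 1.05, adjusted p = 0.0216). *C3* was lost with DESeq2 and without control replicate 1 or 4-OHT replicate 1 or 2 (adjusted p up to 0.0869).

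Further inhibitors and proteases gave 3 calls of 16 tested and 4 of 14, where 5.72% of all genes tested were called. *WFDC1*, a small secreted inhibitor-like protein, and *RECK*, a membrane inhibitor of metalloproteinases, rose with log2 fold changes of 0.24 and 0.13 (adjusted p = 0.00128 and 0.0326), and *CRIM1* fell by 0.17 on the log2 scale (adjusted p = 0.00454). The proteases that rose were *C1S* and *C1R*, with log2 fold changes of 0.34 and 0.35 (adjusted p = 3.01e-06 and 7.98e-06; *C1RL* shares 672 exon bases with *C1R* on the same strand), *DPP4* with 0.17 (0.0103) and *PRSS12* with 0.13 (0.0434). *RECK* was lost with each library left out except control replicate 2, and with the replicate block alone or with the length trend removed (adjusted p up to 0.149). *PRSS12* was lost in 9 of 16 alternatives, namely without control replicate 3 or any 4-OHT replicate, with RLE normalization, with the replicate block, with the length trend removed, with both together and after thinning (adjusted p up to 0.220), and *DPP4* was lost without 4-OHT replicate 2 (0.0656). The start of coagulation had 3 calls in 9 tested genes, beside the same 5.72% over all genes. The thrombin receptors *F2R* and *F2RL2* rose with log2 fold changes of 0.21 and 0.18 (adjusted p = 0.000285 and 0.00973), *TFPI2*, a secreted inhibitor of plasmin, fell by 0.23 on the log2 scale (adjusted p = 0.0185), and tissue factor *F3* had a log2 fold change of 0.061 (adjusted p = 0.311). *F2RL2* was lost without 4-OHT replicate 2 or 3 (adjusted p up to 0.0683) and *TFPI2* without control replicate 1 or 4-OHT replicate 1 or 2 (up to 0.102).

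**Figure D5:**
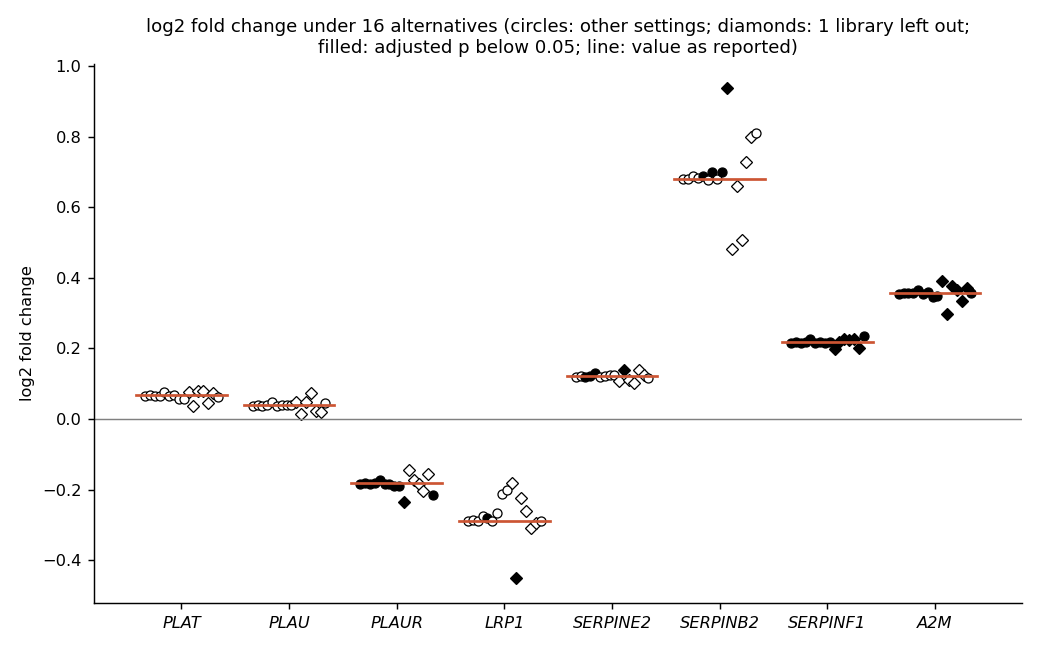
log2 fold change (vertical axis) of the 8 genes under 16 alternatives, with the value as reported (line), other settings (circles) and 1 library left out (diamonds), filled where the adjusted p was below 0.05. *A2M* and *SERPINF1* are filled throughout, *PLAT* and *PLAU* are open throughout, and the filled diamond of *LRP1* at -0.45 is the fit without control replicate 2.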

How the data were processed

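RNA-Seq of polyA RNA of MRC5 cells was analysed in 6 libraries, 3 per group, each assigned from its label. After trimming by Trim Galore, the authors aligned reads to GRCh38 using Hisat2 (version 2.1.0) and counted them with featureCounts (version 1.6.5), and the deposited values are raw counts per gene. The annotation release, the strand setting and the treatment of multimapping reads are not given in the sources used here, so overlapping genes and genes with processed pseudogenes such as *ENO1* and *ANXA2* are less certain. The deposited table also gives exon positions and the merged exon length in bases, which were used for TPM. Counts of 45 identifiers listed on X and Y were added, and symbols came from GENCODE release 44.

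Genes with at least 10 counts over the 6 libraries were tested with edgeR 4.0.16 (R 4.3.3), TMM normalization and group as the only term. DESeq2 1.42.0, limma-voom (limma 3.58.1), other normalizations and filters, a replicate block, removal of a trend on gene length (spline with 5 degrees of freedom) and each library left out were alternatives. Standard errors (SE) were derived from each log2 fold change and its F value. The square root of the common dispersion was 4.36%. Libraries of one group were further apart than counting error allows (chi-square per degree of freedom 2.12 to 3.10, and 5.27 and 6.03 for the pairs with control replicate 2). The fits were tested on simulated data.

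The 8 genes, the related lists and the naming rule were chosen with earlier results of these data known. Named are the 8 genes, list genes that passed the threshold (at most 10 a list), 9 genes set by name, the 3 genes most like each called one, and genes with overlapping exons. Likeness is the Pearson correlation of log2(CPM + 0.1). Some genes of the related lists are not reported here, and list counts leave them out.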

Additional observations from a re-analysis of the deposited data

How the results depend on the processing

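The 8 genes kept their direction in all 16 alternatives each, with 113 of 128 values on the same side of the threshold, 10 that newly passed and 5 that no longer passed. With no filter beyond 1 count, *SERPINE2* (log2 fold change 0.13), *LRP1* (-0.28) and *SERPINB2* (0.69) passed, so that 4 of the 8 genes were called higher and 2 lower, 875 of all genes were called higher, and 1 relative of *LRP1* was called lower. *SERPINE2* also passed with DESeq2 and limma-voom (both 0.12). With 1 library left out, log2 fold changes ranged from -0.45 to -0.18 for *LRP1*, from -0.24 to -0.15 for *PLAUR*, from 0.48 to 0.94 for *SERPINB2*, from 0.036 to 0.080 for *PLAT*, from 0.013 to 0.075 for *PLAU* and from 0.10 to 0.14 for *SERPINE2*, and 0 to 1 of the 8 genes were called lower. Over all genes this gave 289 to 696 calls higher and 244 to 834 lower, most without control replicate 2. By list, calls higher and lower were 1 to 2 and 0 to 4 for plasminogen binding, 1 to 2 and 0 to 1 for coagulation, 0 to 1 and 0 to 1 for relatives of *LRP1*, 0 to 1 and 0 to 1 for relatives of *A2M*, 2 to 5 and 0 to 1 for proteases and 2 to 6 and 0 to 1 for serpins, and 1 to 2 other inhibitors were higher. Relatives of *LRP1* had 0 calls higher after thinning, relatives of *A2M* had 0 higher with DESeq2, proteases had 1 lower with DESeq2, limma-voom and filterByExpr, and serpins had 1 lower with RLE, upper quartile, DESeq2, limma-voom, both other filters, the replicate block, the length trend removed, and both together.

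Deviations of same-numbered libraries of both groups from their group means had correlations of 0.063, 0.026 and 0.039 over 13051 genes. Pairs of unlike number had lower ones, from -0.059 to 0.023. All of these are small, and with so few libraries a group they cannot decide whether same-numbered libraries belong together. With the replicate block *SERPINB2* had a log2 fold change of 0.70 and passed, alone and with the length trend removed (0.70), and 1 other inhibitor was called higher in both fits. The block gave 502 calls higher and 483 lower over all genes, against 563 and 527. *SERPINB2* and *C3* had at most 81 and 43 counts in a library. With counts thinned to the smallest total, *SERPINB2* had a log2 fold change of 0.81 (adjusted p = 0.0891 from edgeR), and *C3* was still called. The cause of these changes was not tested.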
